A study of Mus musculus with 5 samples.

Results

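The SNARE genes of exocytosis examined here were Snap25, Snap23 and Snap29 of the SNAP type, the syntaxin genes Stx3, Stx4a and Stx7, the VAMP genes Vamp2, Vamp3 and Vamp8, and the syntaxin-binding gene Stxbp2. They were taken by name from the authors' table, which lists them in capitals (SNAP25, SNAP23, SNAP29, STX3, STX4A, STX7, VAMP2, VAMP3, VAMP8 and STXBP2), and all 10 were present among its 38924 genes. The set was drawn up around Snap25 because earlier fits of these data had placed it first among the genes higher in DKO. The genotype difference of the members is therefore given as a description, with no p. RNA came from germinal center B cells of mice aged 12 weeks, sorted from the spleen on day 7 of the response to sheep red blood cells. The WT group (n = 3 libraries) carried Cg1-Cre alone, and the DKO group (n = 2) carried Cg1-Cre together with floxed alleles of relb and nfkb2 (relbfl/flnfkb2fl/flCg1-Cre). Cg1-Cre, present in both groups of littermates, acts in B cells once their IgG1 constant region is transcribed, and the series title calls the sorted cells eGFP+. The labels do not state whether each library came from a separate mouse, so p-values measure the spread between these libraries, which may be technical.

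SNARE proteins fuse membranes. A VAMP protein on the vesicle winds together with a syntaxin and a SNAP-type protein on the target membrane, and the zippering of these helices pulls both membranes into contact. SM proteins such as that of Stxbp2 clasp the syntaxin and guide assembly, and the ATPase NSF takes spent complexes apart. SNAP25 is the SNAP-type protein of neurons and endocrine cells, where it serves release triggered by calcium, while its relative SNAP23 does the same work in most other cells, blood cells among them. Plasma cells, mast cells, platelets and cytotoxic lymphocytes are the blood cells best known for SNARE-driven secretion.

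Values are the authors' normalized counts, in which each library's reads were divided by that library's scaling factor. Libraries held 34.0 to 57.6 M reads, of which mitochondrial ribosomal RNA took 47.0% to 70.9%. All 9 germinal center B cell markers had reads in every library, with Bcl6, a transcriptional repressor that germinal center B cells require, between 9681 and 11763 normalized counts. WT 2 and DKO 1 stood apart from the other libraries. The summed level of 10 T cell markers was 1093 in WT 2 and 539 in DKO 1, against 46.1 to 104 in the other 3, and that of 6 naive B cell markers was 18278 and 15497, against 5468 to 9043. Relb had 136, 171 and 117 in the WT libraries against 56.9 and 10.7 in the DKO libraries, and Nfkb2 was at 657, 601 and 445 against 298 and 73.5, so both DKO libraries kept reads of the targeted genes and DKO 1 kept more. In bulk libraries, fewer cells with a transcript and less transcript per cell cannot be told apart.

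Across the 10 members, Snap25 alone went from nearly no reads in WT to a mean of 231 ± 216 (SD, n = 2) normalized counts in DKO, while the other 9 kept WT means between 77.6 and 2228 and shifted by less than 1 unit of log2 either way. Groups of DKO and WT values did not overlap in 3 members with DKO higher (Snap25, Stx3 and Vamp2) and in 5 with DKO lower (Snap23, Snap29, Stx7, Vamp3 and Vamp8). Over the 13242 genes with a mean of at least 10 normalized counts, the minimum used for testing, 12.5% did not overlap with DKO higher and 11% with DKO lower. Nothing is read from the members' counts, because the set was chosen from the same contrast. All 10 members passed the minimum, Snap25 only through its DKO values. Limma's moderated test with Benjamini-Hochberg adjustment called 0 of the 13242 genes (0%), and 6.06% had an unadjusted p under 0.05, while edgeR called 0 (0%) and DESeq2 called 29 of 13238 (0.219%). No member passed in limma or edgeR, and Snap25 did in DESeq2, from which nothing is read either.

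**Figure D1:**
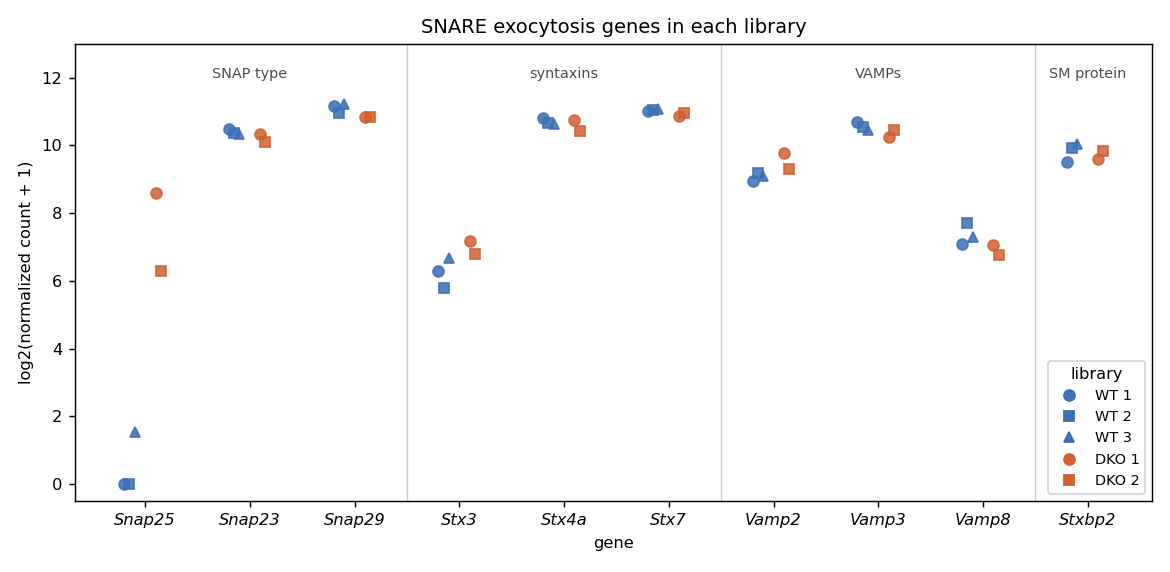
Level of each SNARE gene in each library as log2(normalized count + 1), with WT libraries in blue and DKO libraries in orange and the marker shape giving the replicate number. Snap25 lies at or near 0 in the 3 WT libraries and at 384 and 77.6 normalized counts in DKO 1 and DKO 2, while the points of the other 9 genes lie close together.

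Snap25 had 0, 0 and 2 reads in WT 1, WT 2 and WT 3, which is 0, 0 and 1.92 normalized counts, and 438 and 94 reads in DKO 1 and DKO 2, which is 384 and 77.6 normalized counts. Both DKO libraries were far above all WT libraries, and DKO 1 was far above DKO 2. In the WT libraries with 0 reads, 3 reads were taken as the limit that a count of 0 allows, which is 3.21 normalized counts in WT 1 and 3.10 in WT 2. The 95% exact Poisson intervals used for single libraries elsewhere reach further, to 3.95 in WT 1 and 3.81 in WT 2. Scaled by the authors' factors, the DKO 1 level was 565 times that of the WT libraries together, with a 95% exact interval of 155 to 4677. By the same scaling the DKO 2 level was 114 times the WT level, with an interval of 30.8 to 958. These intervals cover counting error only and rest on 2 WT reads. On the log2(value + 1) scale the fitted difference was 6.93 ± 1.11 (SE), and it was 5.78 without DKO 1, 8.07 without DKO 2 and 5.52 without both WT 2 and DKO 1.

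The gap between the DKO libraries was itself larger than counting error. DKO 1 held 4.94 times the Snap25 of DKO 2, with a 95% exact interval of 3.95 to 6.24. DKO 1 also held 5.30 times the Relb (interval 2.89 to 10.5) and 4.05 times the Nfkb2 (3.20 to 5.17) of DKO 2. For Cd3e, a chain of the T cell receptor complex, the factor was 6.16 (4.22 to 9.27). Lyz2, a myeloid marker, had a factor of 7.15 (5.82 to 8.86). Itgam, S100a8 and S100a9 of the myeloid list were also higher in DKO 1. Their values were 198, 42.0 and 32.4 normalized counts there, against 53.7, 0 and 0 in DKO 2. Other markers of the same lists gave other ratios. Cd4, the coreceptor of helper T cells, was at 42.0 normalized counts in DKO 1 and 22.3 in DKO 2. Csf1r, a growth factor receptor of macrophages, was at 184 in DKO 1 and 256 in DKO 2. Cd14 and Mpo, with few reads, were also higher in DKO 2. Myeloid markers summed to 989, 840 and 99.9 in WT and to 1080 and 404 in DKO. In WT 1, WT 2 and WT 3, Cd3e was at 10.7, 363 and 7.69 normalized counts and Lyz2 at 510, 423 and 44.2. Snap25 was at 0, 0 and 1.92 in the same WT libraries. The part of other cells in the Snap25 level was not tested.

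Some other genes of the synapse had few or no reads in WT and more in both DKO libraries, while others overlapped between the genotypes. Syt1, the calcium sensor of fast transmitter release that binds SNAP25, had 0 reads in each WT library, 36 in DKO 1 and 6 in DKO 2. Cplx1, a complexin that clamps assembled SNARE complexes, had 0 reads in WT, 28 in DKO 1 and 4 in DKO 2. Napb, the neuronal partner of NSF, measured 6.42, 4.13 and 4.80 normalized counts across WT libraries, with 29.8 and 12.4 across DKO libraries. All 3 were above their WT levels in both DKO libraries, and higher in DKO 1 than in DKO 2. Stx1a, a presynaptic syntaxin, overlapped between the genotypes. Stx1a gave 21.4, 1.03 and 8.65 in the 3 WT libraries, compared with 19.3 and 4.96 in the 2 DKO ones.

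Of 16 markers of neurons and endocrine cells, 5 passed the minimum, none of these was called, and their groups overlapped. Another 5 had 0 reads in all WT libraries (Syn2, Stmn2, Nefl, Rbfox3 and Gap43), so they could differ only upwards. All 5 had reads in DKO 1, and 3 of them, without Syn2 and Stmn2, also in DKO 2. Of the 17197 genes of the table with 0 reads over WT, 9.49% had reads in DKO and 2.04% in both DKO libraries. Rbfox3, the nuclear antigen NeuN of neurons, had 23 reads in DKO 1 and 4 in DKO 2, and Nefl, the light neurofilament chain, had 28 and 4. The 5 genes together had 83 reads in DKO 1 and 14 in DKO 2. Scaled by the authors' factors this was 6.29 times, with an exact interval of 3.54 to 12.0. For all 16 markers summed, the factor was 1.99, with an interval of 1.72 to 2.32. In DKO 1 none of the 16 markers was at 0, in DKO 2 there were 4, and in WT there were 9, 11 and 9. The summed level of all 16 was 438, 187 and 205 normalized counts for WT libraries, 445 for DKO 1 and 223 for DKO 2, and these groups overlap. Map2, a gene of neuronal microtubules with reads in every library, held 112 to 288 of that sum. The part of neuronal RNA in the Snap25 level was not tested. Chga, the secretory granule protein chromogranin A of endocrine cells, had an unlike pattern, with 3.84 normalized counts in WT 3, 1.75 in DKO 1 and 0 in the other libraries. Chgb and Scg2 of the same list, with few reads, were higher in both DKO libraries than in every WT library. Chgb measured 9.63 normalized counts in DKO 1 and 7.43 in DKO 2, while WT 1, WT 2 and WT 3 gave 2.14, 4.13 and 0. Scg2 measured 7.01 in DKO 1 and 1.65 in DKO 2, while the same WT libraries gave 0, 1.03 and 0.

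**Figure D2:**
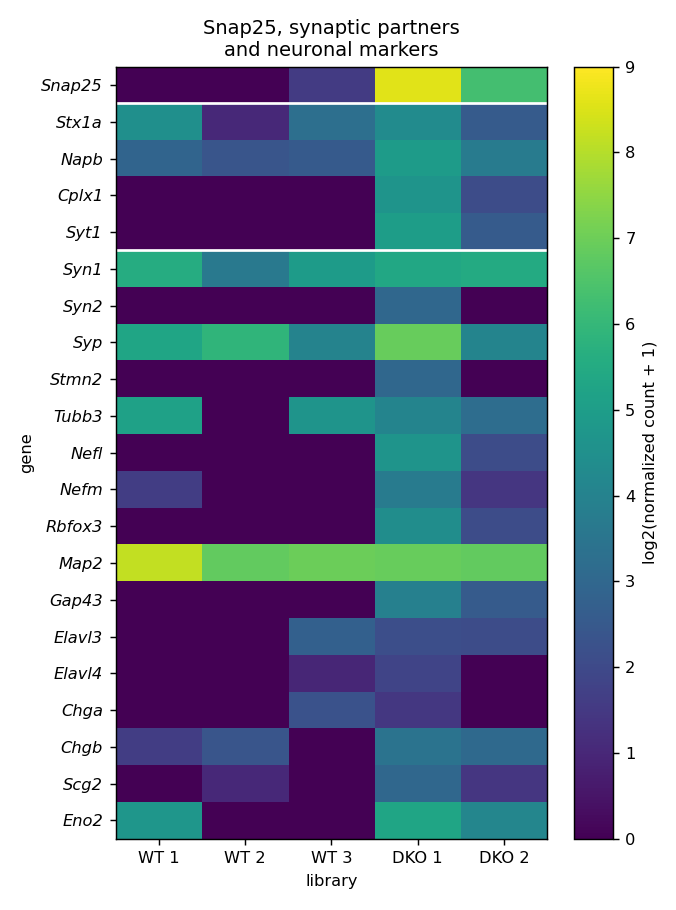
Level of Snap25 (top), of 4 synaptic genes (middle) and of 16 markers of neurons and endocrine cells (bottom) in the 5 libraries, coloured by log2(normalized count + 1) from dark (0) to bright. The dark WT cells of Snap25, Cplx1, Syt1, Nefl, Rbfox3 and Gap43 turn lighter in DKO 1 and less so in DKO 2, while Map2 is bright in all libraries.

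The genes next to Snap25, which lies on chromosome 2, were described as well. Of the 5 annotated neighbours on each side in RefSeq GRCm38.p6, used for gene order only, 5 of 10 were in the table. Mkks, a chaperonin-like gene of cilia, measured 239, 212 and 248 normalized counts across WT libraries, with 177 and 252 across DKO libraries, and Slx4ip was at 428, 354 and 451 against 493 and 442. Both overlapped between the genotypes and neither passed (adjusted p = 0.951 and 0.917, limma). Ankef1, Gm14056 and Jag1, the gene of a Notch ligand, were at no more than 3.50 normalized counts in DKO, and in WT at no more than 2.14 apart from Jag1 in WT 2, at 17.5.

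The tested gene with the profile most like that of Snap25 was Dnm1, which encodes the dynamin that pinches off synaptic vesicles. Likeness was measured as the root mean square difference between log2(value + 1) profiles over the 5 libraries, each centred on its mean, and was 1.28 for Dnm1. Dnm1 had 0, 0 and 1 reads in WT, 74 in DKO 1 and 11 in DKO 2. The next 4 were the predicted genes Gm1972 (1.44), Gm6919 (1.89), Gm9754 (1.93) and Gm15367 (2.02). Like Snap25, Dnm1 and these 4 passed the minimum for testing only through their DKO values. Nothing is therefore read from the direction of their difference.

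Snap23 and Snap29, the other SNAP-type genes, were abundant in every library and slightly lower in DKO. Snap23, the widely expressed relative of Snap25, gave 1428, 1322 and 1304 normalized counts in the 3 WT libraries, compared with 1286 and 1109 in the 2 DKO ones. The highest DKO value lay 17.6 below the lowest WT value, and the fitted log2 difference was −0.18 ± 0.19 (SE), no larger than its error. It was −0.07 without DKO 2 and −0.28 without DKO 1, so its size depended on DKO 2. Snap29, whose protein lacks a membrane anchor and serves many internal fusion steps, autophagy among them, had 2290, 2008 and 2386 in the WT libraries against 1821 and 1825 in the DKO libraries. Both DKO libraries were nearly equal and at least 182 below the lowest WT library, with a log2 difference of −0.29 ± 0.19.

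Per kilobase of exon, Snap25 stayed a minor SNAP-type gene even in DKO 1. Its level per kilobase there was 56.5 normalized counts, against 299.7 for Snap23 and 528 for Snap29, which is 18.8% of Snap23 and 10.7% of Snap29. In DKO 2 it was 11.4 per kilobase, or 4.42% of Snap23. Of the summed level per kilobase of the 3 SNAP-type genes, Snap25 took 6.39% in DKO 1, 1.43% in DKO 2 and at most 0.0284% in a WT library. The sum itself was 997, 890 and 996 per kilobase in WT and 884 and 799 in DKO, so with Snap25 included it was still below every WT library in both DKO libraries.

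**Figure D3:**
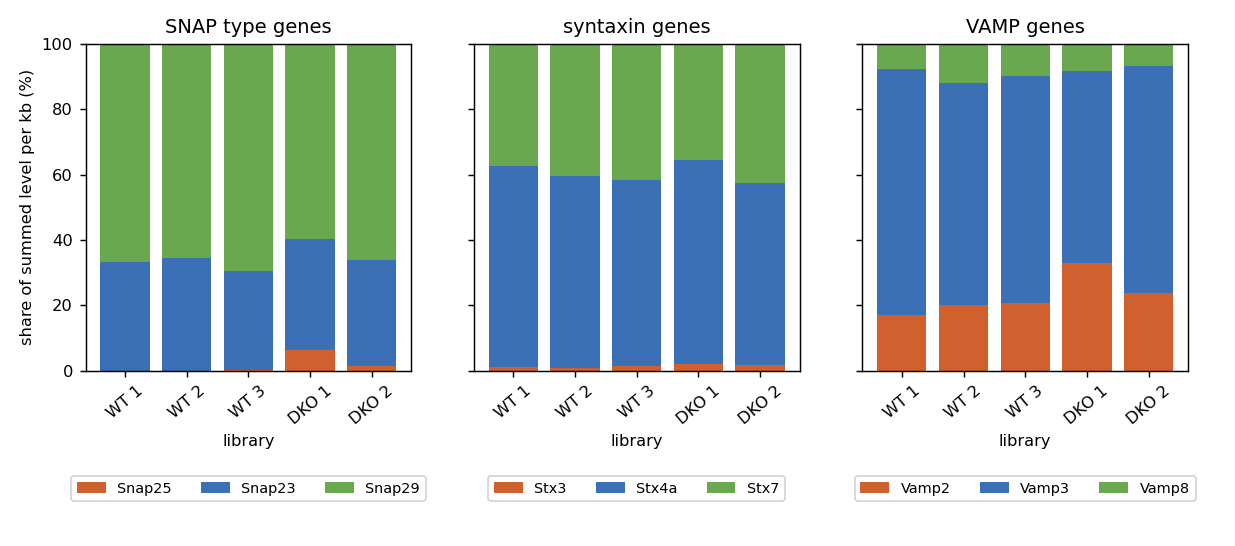
Share of each gene in the summed level per kilobase of its family, in percent, for the SNAP-type, syntaxin and VAMP members in the 5 libraries. Snap25 makes up 6.39% of the SNAP-type sum in DKO 1 and 1.43% in DKO 2, and Vamp2 makes up 32.8% of the VAMP sum in DKO 1 and 23.7% in DKO 2, against 17.0% to 20.6% in WT.

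Among the syntaxin genes, Stx3 was scarce and higher in DKO, while Stx4a and Stx7 were abundant and differed by less than their SE. Stx3, a syntaxin of apical and granule fusion in epithelial and mast cells, measured 77.1, 54.7 and 101 normalized counts across WT libraries, with 144 and 109 across DKO libraries. The lower DKO library lay 8.13 above the highest WT library, and their 95% counting intervals, 91.2 to 129 in DKO 2 and 82.5 to 122 in WT 3, overlapped. The log2 difference was 0.73 ± 0.40 and was 0.30 when WT 2 and DKO 1, the libraries with more T cell transcripts, were both left out. Stx4a, the plasma membrane syntaxin that pairs with SNAP23, gave 1792, 1609 and 1585 in the 3 WT libraries, compared with 1732 and 1364 in the 2 DKO ones. These groups overlapped, and the log2 difference of −0.11 ± 0.20 turned to 0.06 without DKO 2. Stx7, a syntaxin of late endosomes and lysosomes, had 2059, 2103 and 2183 in the WT libraries against 1858 and 1978 in the DKO libraries, below every WT library by 80.5 or more. Its spread between replicates was the smallest of the members, with a coefficient of variation of 2.99% in WT, and its log2 difference was −0.14 ± 0.18.

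Vamp2 was the VAMP gene with higher DKO values, and Vamp3 and Vamp8 had lower ones. Vamp2, the synaptobrevin that pairs with SNAP25 at synapses and is also found in many other cells, measured 497, 586 and 550 normalized counts across WT libraries, with 884 and 630 across DKO libraries. Both DKO libraries were above WT, DKO 1 by a wide margin and DKO 2 by 44.2, about the SD of 44.9 in WT. Its log2 difference of 0.46 ± 0.24 was 0.70 without DKO 2 and 0.21 without DKO 1, so its size depended on DKO 1, the library that also had the most Snap25. Vamp3, the cellubrevin of recycling endosomes, gave 1665, 1497 and 1412 in the 3 WT libraries, compared with 1206 and 1406 in the 2 DKO ones, where DKO 2 lay just 5.87 below the lowest WT library. Vamp8, the endosomal VAMP that drives granule release in platelets and mast cells, had 135, 208 and 157 in the WT libraries against 133 and 107 in the DKO libraries. DKO 1 was 1.78 below the lowest WT library, whose value lay inside the 95% counting interval of DKO 1, 113 to 156. The log2 differences were −0.22 ± 0.20 for Vamp3 and −0.45 ± 0.33 for Vamp8. Platelet markers summed to 71.7, 228 and 35.6 in WT and to 185 and 42.1 in DKO. They were highest in WT 2, which was also the highest library for Vamp8, and their part in the Vamp8 level was not tested.

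Stxbp2, whose SM protein works with syntaxin 11 and syntaxin 3 in cytotoxic granule release, measured 723, 972 and 1064 normalized counts across WT libraries, with 774 and 908 across DKO libraries. The DKO values lay inside the WT range. The log2 difference was −0.11 ± 0.24, and it turned to 0.05 when WT 2 and DKO 1 were both left out, and to about 0 without WT 3 or without DKO 1.

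Ordered by level per kilobase of exon in WT, the members ran from Stx4a (mean 703 ± 48.0 SD, n = 3) through Snap29 (646 ± 57.0), Vamp3 (528 ± 44.6), Stx7 (473 ± 14.1), Snap23 (315 ± 15.6), Stxbp2 (221 ± 42.4), Vamp2 (143 ± 11.8), Vamp8 (72.1 ± 16.3) and Stx3 (13.6 ± 4.05) to Snap25 (0.0943 ± 0.163). Ranges over the 3 WT libraries overlapped for Stx4a and Snap29 and for no other neighbouring pair. Exon lengths came from GENCODE M21, which need not match the gene models used for counting.

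Promoter sequence was available for 7 members, as 8 windows of 300 bases from RefSeq (GRCm38.p6) reaching from 250 bases before a transcript start to 50 after it. Snap25, Vamp2 and Vamp3 had no entry. The κB consensus, the motif that RELB with p52 and other NF-κB dimers bind, was searched on both strands and was in none of the 8 windows and in 4.51% of the 32851 promoters in the table. No match says only that these letters are not in these windows. The windows differed in CpG content, and 3 of them are shown with each CG in capitals: that of Snap29, the most CpG-rich, and those of Stx3 and Vamp8, which have the lowest GC content and belong to the scarcest members with an entry. Snap29 (chr16:17405750-17406049, plus strand) holds 33 CG pairs at 75.3% GC. Stx3 (chr19:11819354-11819653, minus strand) holds 8 at 44.0% GC, and Vamp8 (chr6:72390618-72390917, minus strand) holds 5 at 46.7% GC. The median promoter in the table holds 7 at 52.7% GC, and the other members with an entry hold 9 to 25.
Snap29: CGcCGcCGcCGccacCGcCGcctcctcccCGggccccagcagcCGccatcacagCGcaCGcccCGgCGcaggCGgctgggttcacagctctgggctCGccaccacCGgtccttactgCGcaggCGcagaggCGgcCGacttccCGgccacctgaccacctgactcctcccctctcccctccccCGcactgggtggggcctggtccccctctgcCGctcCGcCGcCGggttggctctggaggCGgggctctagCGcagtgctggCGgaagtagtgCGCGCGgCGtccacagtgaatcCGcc
Stx3: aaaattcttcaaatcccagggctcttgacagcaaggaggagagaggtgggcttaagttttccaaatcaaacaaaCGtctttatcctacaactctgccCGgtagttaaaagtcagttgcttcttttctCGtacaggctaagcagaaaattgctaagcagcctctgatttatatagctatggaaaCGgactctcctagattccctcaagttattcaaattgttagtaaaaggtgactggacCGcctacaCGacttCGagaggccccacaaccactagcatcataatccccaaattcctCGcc
Vamp8: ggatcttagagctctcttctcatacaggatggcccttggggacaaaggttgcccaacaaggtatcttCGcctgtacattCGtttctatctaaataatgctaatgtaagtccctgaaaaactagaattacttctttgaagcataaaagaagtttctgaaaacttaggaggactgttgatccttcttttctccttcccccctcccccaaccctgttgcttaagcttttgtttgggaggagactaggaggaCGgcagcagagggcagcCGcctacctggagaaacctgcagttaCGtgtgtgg

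The wider machinery of SNAREs and secretion, 85 genes in 8 lists, held no gene that passed the test between the genotypes. Of these, 84 were in the table and 55 passed the minimum for testing. Limma called 0 of the 55, with a smallest adjusted p = 0.823, and edgeR and DESeq2 called none of them either. At an unadjusted p under 0.05 there were 1 higher and 2 lower in DKO, where 3.69% and 2.37% of all tested genes were. Fitted values were above 0 in 26 and below 0 in 29, with a median log2 difference of −0.03, beside 0.0013 over all tested genes. Groups did not overlap in 4 with DKO higher and 6 with DKO lower, beside 12.5% and 11% of all tested genes.

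Among the other exocytic SNAREs was the gene with the largest fitted difference in these lists. Stx11, a syntaxin of cytotoxic lymphocytes, gave 191, 58.8 and 109 normalized counts in the 3 WT libraries, compared with 52.5 and 16.5 in the 2 DKO ones, with a log2 difference of −1.82 ± 0.63 (adjusted p = 0.823, limma). DKO 1 lay only slightly below WT 2, and DKO 2 stood well apart from the rest. Vamp1, a synaptobrevin of neurons that many other cells carry too, had 836, 884 and 648 in the WT libraries against 1168 and 900.3 in the DKO libraries. Snap47, a SNAP-type relative, was at 230 in WT 2 and between 43.0 and 84.9 in the other libraries, with overlapping groups. In this list 4 genes had fitted values above 0 and 2 below, and 6 of 8 were tested.

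Endosomal SNAREs were split 5 above and 3 below, with a median log2 difference of 0.15, and Stx8 had the smallest p, at −0.43 ± 0.27 (adjusted p = 0.877, limma). It was followed by Vti1b and Vti1a, Q-SNAREs of endosomes and the Golgi, at −0.31 ± 0.25 and −0.32 ± 0.29. ER and Golgi SNAREs were split 5 and 5, including Sec22b, an R-SNARE of transport between these compartments, for which WT libraries had 640, 398 and 556 and DKO libraries had 811 and 696. Stx18 and Bnip1, Q-SNAREs of the ER, were at log2 differences of −0.50 ± 0.36 and −0.32 ± 0.23. In the list of SM and syntaxin-binding proteins 3 were above and 5 below. Its Stxbp3a, whose SM protein binds syntaxin 4, measured 707, 684 and 670 across WT libraries, with 1102 and 862 across DKO libraries, with a log2 difference of 0.50 ± 0.21 (adjusted p = 0.823, limma). Both DKO values were above the narrow WT range. Scfd2, an SM-like gene, overlapped between the groups, at 0.53 ± 0.38. For disassembly, Nsf gave 1757, 1847 and 2372 in the 3 WT libraries, compared with 1951 and 2657 in the 2 DKO ones, and these groups overlapped. Napg, a SNAP adaptor of NSF, had a log2 difference of 0.23 ± 0.23, and Napb, described above with the synaptic genes, 1.75 ± 0.95. Napb passed the minimum for testing only through its DKO values. The disassembly list had 3 genes above and 1 below.

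The genes of priming and calcium sensing were mostly too scarce to test, with 5 of 20 past the minimum, of which 1 was above 0 and 4 below. Of the 20, 9 had 0 reads over WT, and 7 of these 9 had reads in DKO, but only Syt1 and Cplx1 in both DKO libraries, beside the 9.49% and 2.04% of all such genes given above. Syt11, a synaptotagmin that does not bind calcium, had the smallest p of the list (adjusted p = 0.877, limma), with WT libraries at 380, 267 and 277 and DKO libraries at 247 and 225. Next by p were the priming gene Unc13b, at −0.48 ± 0.67, and the complexin gene Cplx2, at 0.82 ± 1.24, both smaller than their errors. Unc13d, the Munc13-4 priming factor of lymphocyte granules, was at 274, 394 and 371 against 405 and 227. Rab27a, the GTPase that tethers secretory granules in lymphocytes, had 429, 403 and 449.7 in the WT libraries against 432 and 418 in the DKO libraries, which lie inside the WT range. In the list of secretory Rab proteins and their effectors, to which it belongs, 5 of 15 were tested, with fitted values above 0 in 2 and below 0 in 3. The smallest p values belonged to Rab3d, a Rab of secretory granules, at −0.92 ± 1.04, and the synaptotagmin-like genes Sytl1, at −0.76 ± 1.07, and Sytl3, at 0.36 ± 0.78, none larger than its error. The exocyst, which tethers vesicles to the plasma membrane, had 3 genes above and 6 below, with Exoc7 lowest at −0.56 ± 0.23 (adjusted p = 0.823, limma), with WT libraries at 424, 449.9 and 493 and DKO libraries at 303 and 314. The subunit genes Exoc1 and Exoc5 were at 0.17 ± 0.21 and 0.18 ± 0.23.

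**Figure D4:**
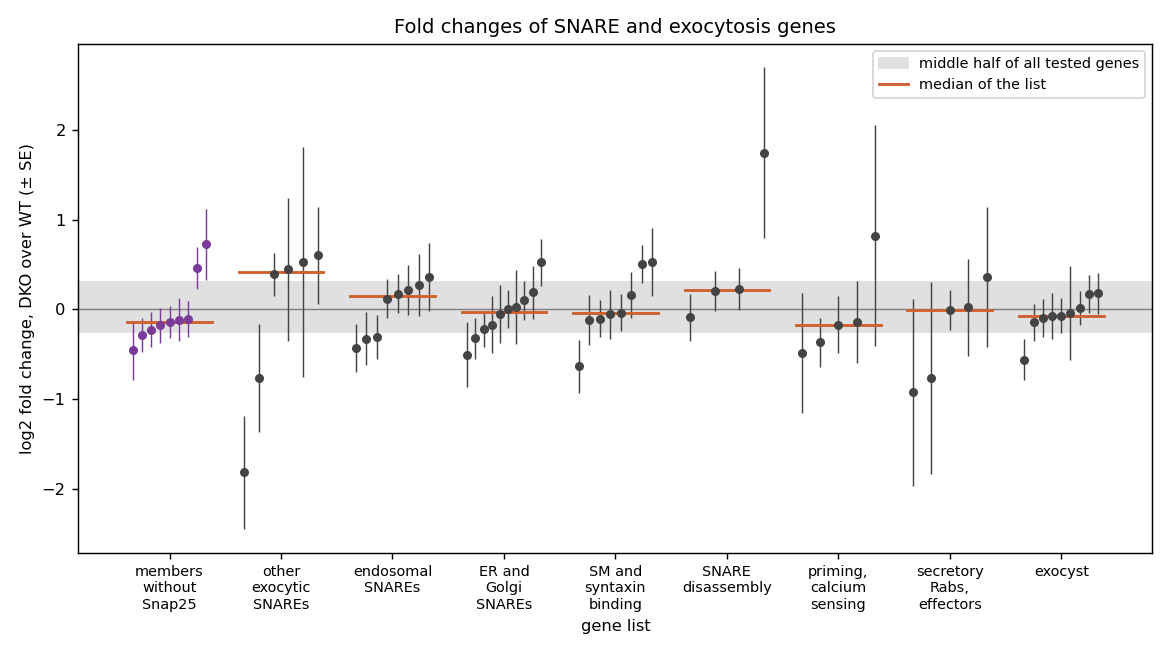
Fitted log2 difference between DKO and WT with its standard error for the 9 members other than Snap25 and for the tested genes of the 8 wider lists, each point a gene and each orange line the median of its list. The grey band, from −0.25 to 0.31, holds the middle 50% of all tested genes, and the medians of all lists but that of the other exocytic SNAREs (0.42) fall inside it.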

How the data were processed

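The authors deposited 1 table of normalized counts (unit: signal), and per the submitters' processing notes the build was mm9 and the tools were TopHat2 2.0.4, Cufflinks 2.0.2 and CASAVA 1.8.2. Not given in the sources used here were the counting tool, annotation and strand setting. RNA was amplified with the NuGEN Ovation system, per the labels' protocols. Dividing a library's values by its smallest value above 0 gave whole numbers, within 0.01, for 100% of them, so whole reads were recovered. Genes with a mean of at least 10 were tested on log2(value + 1) with limma 3.58.1 (R 4.3.3, mean-variance trend, two-sided, Benjamini-Hochberg, threshold 0.05). That scale understates changes of scarce genes. EdgeR 4.0.16 and DESeq2 1.42.0 ran on the recovered reads, and the code was tested on simulated data. Ratios of reads carry exact conditional binomial intervals, and single libraries exact Poisson intervals. Read copies from amplification are not independent molecules, so intervals cover counting error only.

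The members and lists were chosen with earlier results of these data known. Named were all members, up to 3 tested genes per list with the smallest p, the 5 nearest profiles, the neighbours of Snap25, Relb and Nfkb2, and, for the marker lists used, their sums with the first marker of some. All other genes named were chosen after their values were seen. Vamp7 was not analysed here, and a few genes that these rules or choices would name are not reported here. Alternatives were the pseudocount, the minimum, scaling, the test, the replicate number as a block and leaving out libraries.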

Additional observations from a re-analysis of the deposited data

How the results depend on the processing

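No gene passed in limma under other pseudocounts, minimums, quantile or TMM scaling, nor in edgeR on the recovered reads. DESeq2 called 29 genes and the fit with the replicate number as a block 36, both with Snap25 among them, and leaving out 1 library gave 0 to 1, the 1 call arising without WT 2 and without DKO 1. Of the 84 wider SNARE and secretion genes, of which the main fit tested 55, 0 were called in every setting. The log2 difference of Snap25 was positive in all 16 alternatives, from which nothing is read, since the gene was chosen for being higher in DKO. It was 4.41 with a pseudocount of 8, 8.18 in edgeR, 8.41 in DESeq2 and 5.52 without both WT 2 and DKO 1, and it ran from 5.78 to 8.07 when 1 library was left out. With the replicate block it was 7.44, a fit in which WT 3 has no partner. The labels do not say that the numbers pair libraries. For that reason the numbers were not taken as pairs. Deviations from the group means correlated at 0.00499 for libraries numbered 1 and at −0.28 for those numbered 2 over 13242 genes. With 2 DKO libraries, the DKO deviations mirror each other, and WT 2 with DKO 1 gave 0.28. These correlations therefore cannot decide on pairing. For the other 9 members, 135 of 144 alternative values lay within the spread between replicates of the main one and 9 moved further. Of these 9, 7 kept their sign in all 16 alternatives, Stx4a turned positive in 1, without DKO 2, and Stxbp2 in 4, with the replicate block, without WT 3, without DKO 1 and without both WT 2 and DKO 1, at 0.000342, 0.000342, 0.000493 and 0.05. Depth limits Snap25 in WT, where 2 reads set every ratio, and 2 DKO libraries that differ 4.94-fold in Snap25 limit the rest.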

Other observations

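Genes nearly silent in WT and present in both DKO libraries were listed by a rule added after the data were seen: at most 3 reads over WT, at least 20 in DKO 1 and at least 2 in DKO 2. Of 20826 genes with at most 3 WT reads, 35 met it. Snap25 came first with 532 DKO reads, and Dnm1 was next with 85. Genes best known from neurons and glia were among the others. Slc1a2, the glutamate transporter of astrocytes, had 2 reads over WT, 33 in DKO 1 and 3 in DKO 2. Hpcal4, a neuronal calcium sensor, had 2 reads over WT, 44 in DKO 1 and 8 in DKO 2. Rbfox1, a splicing factor of neurons and muscle, had 2, 27 and 5, and Atp2b2, a calcium pump of neurons and hair cells, had 1, 23 and 10. The list also held Ltf, the lactoferrin of neutrophils, with 1 read over WT, 50 in DKO 1 and 2 in DKO 2. With the DKO libraries exchanged in the rule, 5 genes met it.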
